A study of Mus musculus with 9 samples.

Results

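The genes described here are the matrix metalloproteinases (MMPs), the ADAM and ADAMTS proteases and the tissue inhibitors of metalloproteinases (TIMPs) in mouse LLC (Lewis lung carcinoma) cells with and without CD47. They were chosen by symbol among the protein-coding genes of the count table (names that begin with Mmp, Adam or Timp and a number, or with Adamts), which gave 86 of the 50813 genes listed. They comprised 23 MMPs, 34 ADAMs, 19 ADAMTS proteases, 5 ADAMTS-like proteins, 4 TIMPs and Mmp24os1, a gene on the strand opposite Mmp24 that carries the name but is not an MMP. The counts came from RNA-seq of 9 libraries, 3 each of wild-type (WT) LLC cells, CD47 KO clone E3 and CD47 KO clone E5, and the comparisons ask how the expression of these genes differed between each clone and WT and between the clones. All cells carried a luciferase transgene and were grown in culture without treatment, and the clones were made by electroporating Cas9 and a Cd47 guide and growing single cells. WT was 1 line and each KO was 1 clone, so that loss of CD47 and differences between clones cannot be told apart.

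MMPs are zinc proteases that are made as inactive precursors and cleave collagens, proteoglycans, glycoproteins and other proteases outside the cell. ADAMs are membrane-bound relatives, several of which release the outer part of growth factors, cytokines and receptors from the cell surface. ADAMTS proteases are secreted, and some of them trim procollagens or cut large proteoglycans. TIMPs bind the active site of these enzymes, and tumour cells use the balance of proteases and inhibitors when they move through matrix.

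Total counts were 44257404 to 55095219 per library. Replicate 3 of clone E3 stood apart, since the chi-square of its gene counts against the other E3 libraries, divided by the degrees of freedom, was 190 and 231, against 4.83 to 39 for the other pairs of one line. Cd47 itself was at 179 to 187 CPM (counts scaled by the TMM method to a common library total) in WT, 36.8 to 49.6 in clone E3 and 15.5 to 18.6 in clone E5, so its transcript was lower in every library of both clones. Of 6 genes listed as markers of LLC as a mesenchymal-like carcinoma, 6 were tested, and they summed to 6750 to 6890 CPM in WT, 7310 to 10100 in clone E3 and 9240 to 9960 in clone E5. Vim and S100a4 were higher in both clones than in WT, while the keratin genes Krt8 and Krt18 were lower in clone E3 (log2 fold changes -2.33 and -1.08) and higher in clone E5 (0.95 and 1.08). Leukocyte markers summed to 2.35 to 3.51 CPM with Cd3e at 0, endothelial markers to at most 0.253 CPM, and epithelial markers to at most 0.868 CPM with Epcam at 0. Of 6 fibroblast markers, Thy1 was at 0 and 5 were tested. Their summed CPM was 48.4 to 63.9 in WT, 48.1 to 81.6 in clone E3 and 17.7 to 21 in clone E5. Against WT, 3 of the 5 were higher and 1 was lower in clone E3, while 4 were lower in clone E5, against 15.7% higher and 14.7% lower among all genes in the first comparison and 11.7% lower in the second. The part of these markers in the results below was not tested. In bulk libraries, fewer cells of a kind and less RNA per cell cannot be told apart.

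Of the 86 genes, 35 had enough counts to be tested. A gene counted as passed at a false discovery rate (FDR) under 0.05 by the quasi-likelihood test of edgeR, adjusted over 14593 genes by the Benjamini-Hochberg method, and as a differentially expressed gene (DEG) where the absolute log2 fold change was also above 1. In clone E3, 17 of the 35 passed against WT, 10 higher and 7 lower, and 8 were DEGs, 4 in each direction. Among all genes tested, 30.5% passed in this comparison (15.7% higher and 14.7% lower) and 9.82% were DEGs (5.43% higher and 4.39% lower). The median log2 fold change of the 35 was 0.26, against 0.01 for all genes. In clone E5, 16 passed against WT, 2 higher and 14 lower, and 12 were DEGs, each of them lower. Among all genes, 20.6% passed (8.96% higher and 11.7% lower), and 8.21% were DEGs (2.69% higher and 5.52% lower). The median was -0.51, against -0.0023 for all genes. Between the clones, 22 passed, of which 5 were higher and 17 lower in clone E5, and 12 were DEGs, each lower in clone E5, where 31.9% of all genes passed (14.7% higher and 17.2% lower) and 11% were DEGs (3.49% higher and 7.52% lower). The median of this difference was -0.43.

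The filter on low counts keeps a gene that is expressed in 1 line only, and such a gene differs between lines. Among the 26 tested genes with at least 10 counts in every library, fitted with the genes that met the same limit, 9 were lower in clone E5 than in WT and 6 were DEGs, where 9.85% and 2.54% of the 12550 genes that met the limit were so. Between the clones 3 were higher and 8 lower in clone E5 (14.6% and 16.4% of these genes), and 3 were lower DEGs (4.21%), against 12 under the main filter. Without replicate 3 of clone E3, 36 of the 86 genes were tested. The counts against WT were then 14 higher and 8 lower in clone E3 (21.8% and 21.5% of 14867 genes) and 6 higher and 18 lower in clone E5 (20.8% and 21.2%). Between the clones, 6 were higher and 20 lower in clone E5, beside 22.4% and 21.7% of all genes. The 3 lines were fitted with a common estimate of the spread. An E3 library therefore also enters the p-values of clone E5 against WT. The comparisons of each clone with WT used the same 3 WT libraries, so their values are given side by side without a measure of their likeness.

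**Figure D1:**
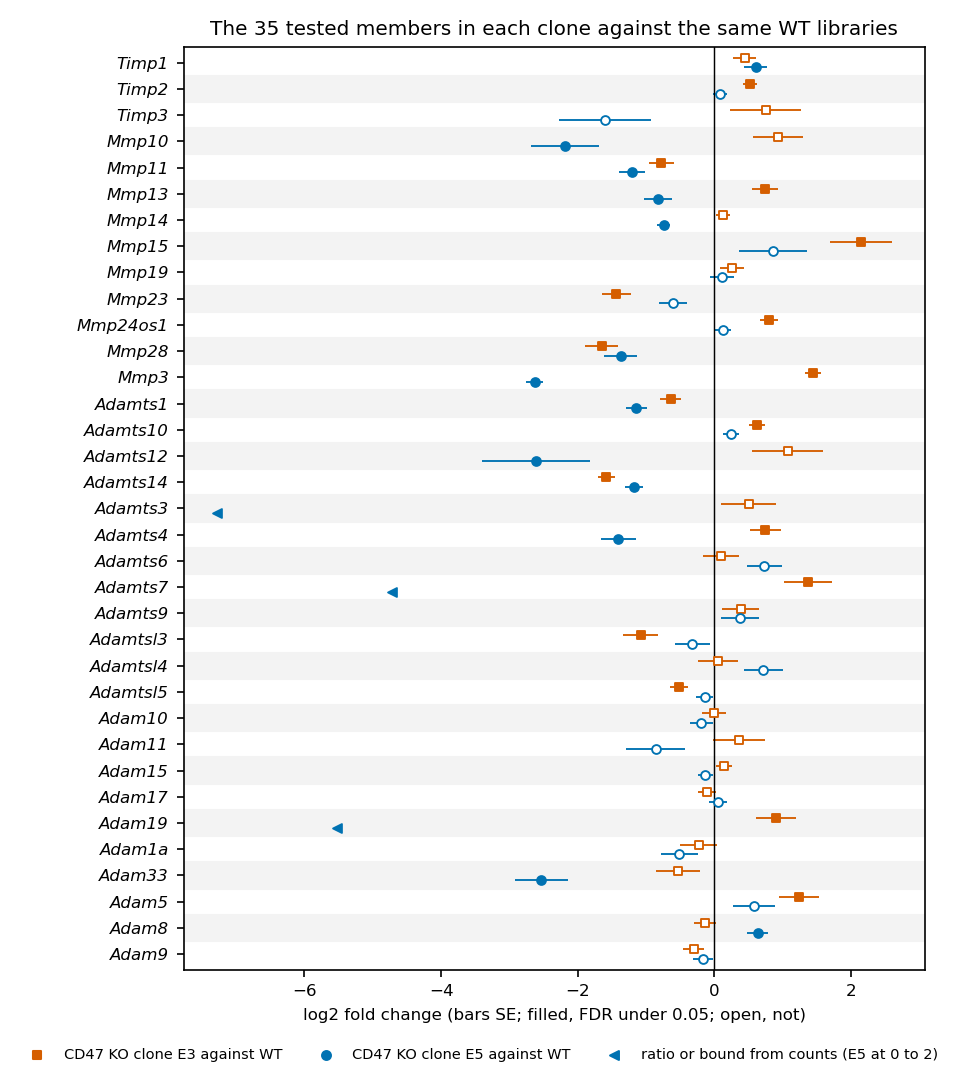
Log2 fold change of each of the 35 tested genes (vertical axis) in clone E3 (squares) and clone E5 (circles) against the same WT libraries, with bars for the standard error and filled symbols for an FDR under 0.05. Triangles mark 3 genes with 0 to 2 counts per clone E5 library, drawn at the log2 of the summed-count ratio (Adamts3, Adamts7) or of the bound at 3 counts per library (Adam19). Mmp3 lies at 1.45 in clone E3 and -2.63 in clone E5, while Adam10, Adam15 and Adam17 lie near 0 in both.

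Stromelysins cleave proteoglycans, fibronectin and other matrix proteins and activate other MMPs. The stromelysin genes Mmp3 and Mmp10 and the collagenase gene Mmp13 lie in one cluster of 10 Mmp genes that spans 427 kb of mouse chromosome 9. These 3 were the tested genes of the cluster, and each was lower in clone E5 than in clone E3. The promoters of stromelysin and collagenase genes are known for sites of AP-1, the dimer of FOS and JUN proteins. The 150 bases before the transcription start in RefSeq (assembly GRCm38.p6, plus strand for all 3) are shown because each of these genes was lower in clone E5 than in both other lines, with the letters TGAGTCA or TGACTCA in capitals.
Mmp3 (chr9:7445672-7445821): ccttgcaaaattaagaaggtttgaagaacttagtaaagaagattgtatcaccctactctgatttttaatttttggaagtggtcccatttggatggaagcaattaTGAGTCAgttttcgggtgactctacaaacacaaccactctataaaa
Mmp10 (chr9:7502192-7502341): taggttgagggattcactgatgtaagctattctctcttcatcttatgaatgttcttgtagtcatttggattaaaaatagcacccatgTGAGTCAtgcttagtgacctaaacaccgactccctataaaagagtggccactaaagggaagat
Mmp13 (chr9:7272364-7272513): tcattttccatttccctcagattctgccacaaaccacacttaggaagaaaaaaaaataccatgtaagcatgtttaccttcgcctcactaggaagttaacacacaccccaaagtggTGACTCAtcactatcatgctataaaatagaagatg

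The 7 letters begin 46 bases before the start in Mmp3, 63 in Mmp10 and 35 in Mmp13. In windows from 250 bases before to 50 after the start, TGAGTCA or its reverse complement TGACTCA was found in 5.2% of 32841 RefSeq promoters, and the letters TATAAA, searched on the sense strand, in 8.32%. The AP-1 and TATAAA letters did not overlap in the 3 sequences shown. Of the 35 tested genes, 25 had a promoter entry, and 4 of these held the AP-1 letters, the fourth being 1 of 3 starts of Adam19. Of all 86 genes, 54 had an entry and 10 held the letters. Among these were Mmp12, Mmp1a, Mmp1b and Mmp7 of the same cluster, which were too low to test. Mmp8, Mmp20 and Mmp27 of the cluster held none. The letters were thus not limited to the 3 genes shown. Counted by gene in the same way, 5.95% of 27018 genes held them at any start. Such a match describes the sequence and does not show that a factor was bound.

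Mmp3 (stromelysin-1, GRCm39 chr9:7445822-7455975) was at 39.4, 41.6 and 44.4 CPM in the WT libraries, at 102, 108 and 132 in clone E3 and at 6.55, 7.35 and 6.42 in clone E5. The 3 lines did not overlap. Mmp3 rose in clone E3 by a log2 fold change of 1.45 ± 0.12 (SE, n = 3 per line, adjusted p = 2.09e-05) and fell in clone E5 by 2.63 ± 0.12 (adjusted p = 3.36e-07), which is 2.73-fold and 0.162-fold the WT level. The difference between the clones was -4.07 ± 0.13 (adjusted p = 1.19e-08).

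Mmp10 (stromelysin-2) had few counts, 24, 16 and 15 in WT, 28, 30 and 45 in clone E3 and 2, 2 and 8 in clone E5. Every E5 library was below every other library, and every E3 library was above WT. Expression fell in clone E5 (log2 fold change -2.19 ± 0.50, adjusted p = 0.0107), while the difference of 0.93 ± 0.36 in clone E3 did not pass (adjusted p = 0.077). Mmp13 (collagenase-3, which cuts fibrillar collagen) had 2.32, 1.98 and 2.05 CPM in WT, 4.14, 2.68 and 3.78 in clone E3 and 1.14, 1.11 and 1.33 in clone E5. Its lines did not overlap either. Mmp13 rose in clone E3 (0.74 ± 0.19, adjusted p = 0.0141) and fell in clone E5 (-0.82 ± 0.20, adjusted p = 0.0157). Either call was lost when 1 of 3 single libraries was left out, with adjusted p up to 0.0638 and 0.0664, while the difference between the clones (-1.56 ± 0.20, adjusted p = 0.000236) passed throughout.

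The other Mmp genes of the cluster were at low or no counts. The interstitial collagenase genes Mmp1b and Mmp1a reached at most 14 and 8 counts, and how reads shared between these paralogues were counted is not given in the sources used here. Mmp12 (macrophage metalloelastase) and Mmp27 reached 3, while Mmp7, Mmp8 and Mmp20 had no counts in any library. Of 8 tested protein-coding genes within 500 kb of the cluster, 2 were lower in clone E5 (11.7% of all genes). In clone E3, 2 were lower (14.7% of all genes) and 1 was higher (15.7%). Those lower in clone E5 were Birc3 with 117, 100 and 110 counts in WT, 43, 33 and 38 in clone E3 and 0, 2 and 1 in clone E5, and Dcun1d5 with a log2 fold change of -0.47. Birc3 was thus lower in both clones, unlike Mmp3. These neighbours, and those given further on, were looked up after the values of the Mmp, Adamts and Adam genes had been seen.

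**Figure D2:**
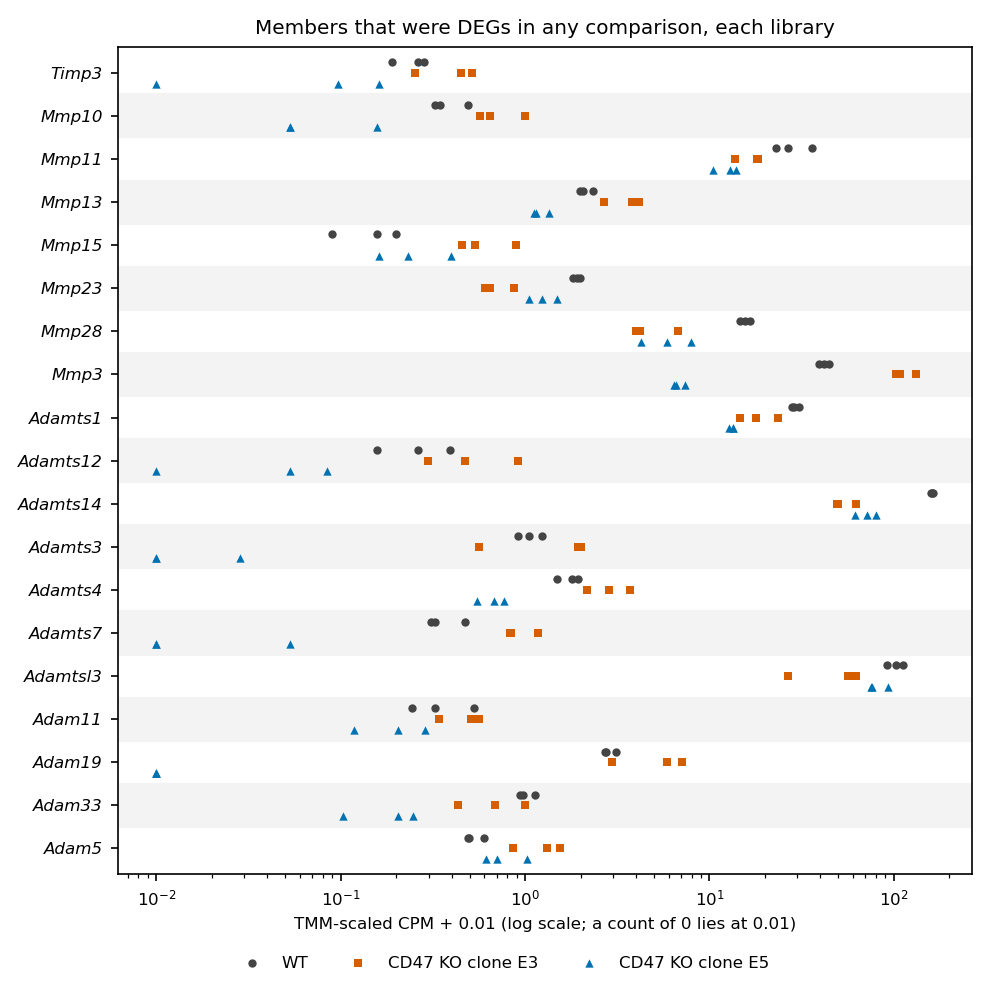
TMM-scaled CPM plus 0.01 on a log axis for the 19 genes that were DEGs in any comparison, with 1 point per library (circles WT, squares clone E3, triangles clone E5). Mmp3 separates the 3 lines, at 39.4 to 44.4 CPM in WT, 102 to 132 in clone E3 and 6.42 to 7.35 in clone E5, and the 3 clone E5 points of Adam19 lie at a count of 0.

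Mmp11 (stromelysin-3), which in spite of its name cleaves few matrix proteins and lies outside the cluster, had 36.1, 26.6 and 23.1 CPM in WT, 18.2, 13.8 and 18 in clone E3 and 10.4, 12.8 and 13.9 in clone E5. All KO libraries were below all WT libraries. It fell by 0.78 ± 0.18 in clone E3 (adjusted p = 0.00936) and by 1.21 ± 0.19 in clone E5 (adjusted p = 0.00114) on the log2 scale. Its exons overlap 155 bases of Chchd10 on the other strand, and although the library kit keeps strand, the strand setting of the counting is not given in the sources used here.

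Membrane-type MMPs are anchored to the cell surface, and Mmp14 (MT1-MMP) cuts collagen there and activates the gelatinase MMP2 together with TIMP2. Mmp14 was the most abundant MMP in WT cells, at 284, 270 and 279 CPM. Clone E3 overlapped this range, at 318, 264 and 330 CPM, whereas clone E5 lay below it, at 162, 167 and 169. Mmp14 fell in clone E5 to 0.597 of the WT level (log2 fold change -0.74 ± 0.10, adjusted p = 0.000519), and in clone E3 the difference of 0.13 ± 0.10 did not pass (adjusted p = 0.359). The clones differed by -0.87 ± 0.10 (adjusted p = 0.000134). Mmp15 (MT2-MMP) had only 4, 9 and 7 counts in WT, 44, 21 and 24 in clone E3 and 18, 7 and 12 in clone E5. Mmp15 rose in clone E3 (2.14 ± 0.45, adjusted p = 0.00536), where all libraries lay above WT, and the value of 0.86 ± 0.50 in clone E5 did not pass (adjusted p = 0.27). The other membrane-type MMP genes were untested, with at most 10 counts (Mmp17).

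Among the remaining MMPs, Mmp28 (epilysin) had 15.6, 16.6 and 14.7 CPM in WT, 6.74, 4.21 and 3.98 in clone E3 and 4.27, 5.88 and 7.97 in clone E5. It fell in both clones, by 1.65 ± 0.24 (adjusted p = 0.000757) and 1.37 ± 0.24 (adjusted p = 0.00272), and the clones overlapped each other. Its exons share 969 bases with a gene on the other strand, 1700020L24Rik. Mmp23, an MMP with a membrane anchor at its amino end, was at 1.96, 1.81 and 1.9 CPM in WT, 0.86, 0.634 and 0.594 in clone E3 and 1.03, 1.48 and 1.22 in clone E5. It fell in clone E3 (-1.44 ± 0.21, adjusted p = 0.000781), and the value in clone E5 was -0.60 ± 0.20 (adjusted p = 0.0593), which passed without replicate 3 of clone E3 (adjusted p = 0.0243). Mmp19 passed in no comparison, with means of 24.5 CPM in WT, 29.3 in clone E3 and 26.5 in clone E5. The gelatinase genes Mmp2 and Mmp9, which digest basement membrane collagen and denatured collagen, were too low to test, with at most 5 and 14 counts in any library. Mmp24os1 rose in clone E3 (17.9 to 20.3 CPM in WT, 29.9 to 39.2 in clone E3, log2 fold change 0.80 ± 0.13, adjusted p = 0.00109) and was at 18.9 to 23.5 CPM in clone E5. It shares 698 exon bases with Mmp24, which was not tested.

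TIMPs inhibit the MMPs and some ADAM and ADAMTS proteases. Timp2 (GRCm39 chr11:118191887-118246566), which also takes part in the activation of MMP2 by MT1-MMP, was at 234, 251 and 262 CPM in WT, 367, 376 and 334 in clone E3 and 287, 267 and 237 in clone E5. Only the E3 libraries lay apart from WT. Timp2 rose in clone E3 to 1.44-fold (log2 fold change 0.53 ± 0.10, adjusted p = 0.0034), and in clone E5 the difference was 0.08 ± 0.10 (adjusted p = 0.639). Timp1, which is often induced along with MMPs, was at 16.9, 18.9 and 19.4 CPM in WT, 20.4, 21.9 and 32.7 in clone E3 and 30.6, 29.1 and 24.3 in clone E5. Both clones lay above WT. It rose in clone E5 (0.60 ± 0.17, adjusted p = 0.0323), a call that was lost under 7 of 16 alternatives with adjusted p up to 0.119, and the value of 0.44 ± 0.17 in clone E3 did not pass (adjusted p = 0.0771). Timp3, the TIMP that binds to matrix and inhibits ADAM17, had 9, 12 and 13 counts in WT, 22, 24 and 11 in clone E3 and 4, 7 and 0 in clone E5. It was lower in clone E5 than in clone E3 (-2.35 ± 0.63, adjusted p = 0.0168) and passed against WT in neither clone. Its exons share 1734 bases with Syn3 on the other strand. Timp4 had at most 2 counts.

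Levels of different genes were compared as TMM-scaled CPM per kb of exon. On this scale the order in WT was led by Adam9 (60.7 ± 4.5, SD), Timp2 (55.8 ± 3.09) and Mmp14 (45.1 ± 1.14), of which Adam9 and Timp2 did not differ beyond their spread. They were followed by Adam10 (29.5 ± 0.647), Adamts14 (27.6 ± 0.438), Mmp3 (23.2 ± 1.38) and Adam17 (16.7 ± 0.925). In clone E3, Timp2 (80.4 ± 4.87) came first, followed by Mmp3 (63.4 ± 8.64), Mmp14 (49.3 ± 5.67) and Adam9 (49.3 ± 10.3), which overlapped each other within their spread. In clone E5 the leading genes were Timp2 (59 ± 5.61), Adam9 (54.1 ± 4.53) and Mmp14 (26.9 ± 0.62), and Mmp3 (3.76 ± 0.281) was in place 13 of 35. Timp2 and Adam9 overlapped within their spread in clone E5, as did Mmp14 and Adam10 (25.9 ± 1.19).

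**Figure D3:**
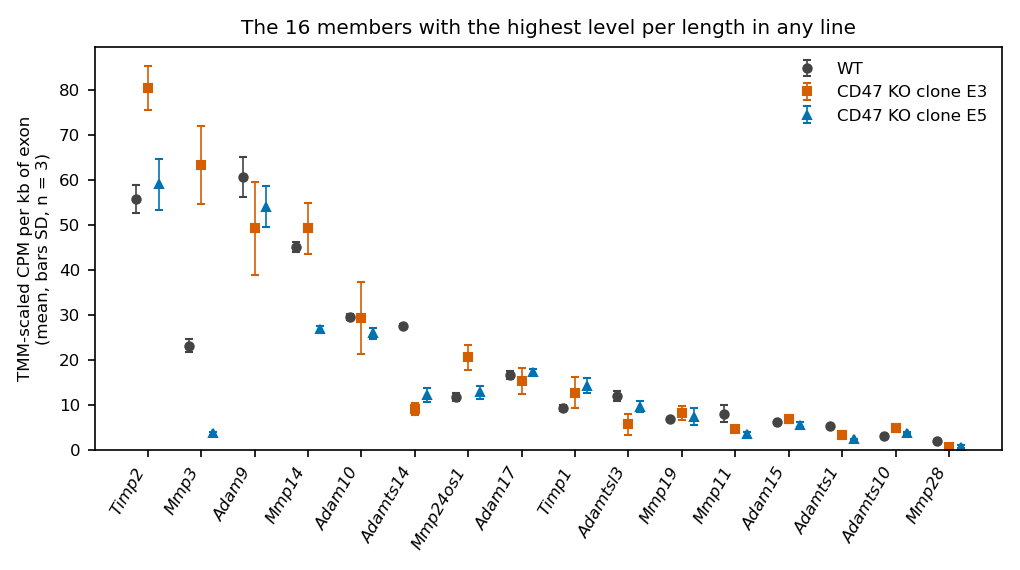
Mean TMM-scaled CPM per kb of exon with the SD over 3 libraries (bars) for the 16 genes with the highest level in any line (circles WT, squares clone E3, triangles clone E5). Mmp3 is highest in clone E3 (63.4), followed by WT (23.2) and clone E5 (3.76), and Adamts14 is at 27.6 in WT and under 13 in both clones.

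Summed over the 23 MMPs, the level per length was 85.8 to 89.4 in the WT libraries, 116 to 143 in clone E3 and 40.1 to 46.4 in clone E5, and the lines did not overlap. Mmp14 made up 51.1% to 52.1% of this sum in WT, where Mmp3 was second with 24.5% to 28.4%. In clone E3, Mmp3 came first in each library with 44.8% to 51.7%. In clone E5, Mmp14 made up 59.3% to 65.5% and Mmp19 was second, with 14.1% to 19.9%. The TIMP sum was 61.2 to 68.5 in WT, 91.7 to 95.5 in clone E3 and 65.5 to 79.9 in clone E5, with Timp2 above 80% of it in every library. The ratio of the TIMP sum to the MMP sum was 0.684, 0.77 and 0.789 in the WT libraries, 0.73, 0.822 and 0.64 in clone E3 and 1.99, 1.69 and 1.41 in clone E5. WT and clone E3 overlapped in this ratio, and the E5 libraries lay above both. It is a ratio of transcript levels and says nothing of active enzyme.

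**Figure D4:**
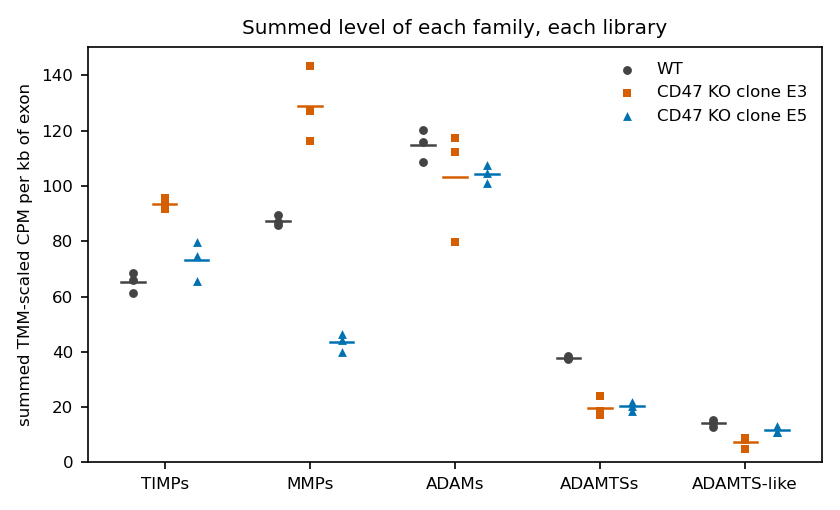
Summed TMM-scaled CPM per kb of exon of each family (horizontal axis) in each library, with a line at the mean of 3 libraries (circles WT, squares clone E3, triangles clone E5). The MMP sum separates the lines, at 85.8 to 89.4 in WT, 116 to 143 in clone E3 and 40.1 to 46.4 in clone E5, and the ADAMTS sum is lower in both clones than in WT.

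ADAM10 and ADAM17 are the main sheddases of the cell surface, releasing EGF family ligands, TNF, Notch and adhesion molecules. Neither gene passed against WT in either clone with all libraries fitted. Adam10 was at 161 to 168 CPM in WT, 193, 186 and 112 in clone E3 and 139 to 152 in clone E5, and its log2 fold changes were -0.01 ± 0.17 (adjusted p = 0.987) and -0.19 ± 0.17 (adjusted p = 0.5). The low E3 value is that of replicate 3. Without that library, the log2 fold change of Adam10 against WT was 0.20 in clone E3 (adjusted p = 0.0223) and -0.18 in clone E5 (adjusted p = 0.023), and the clones differed by -0.38 (adjusted p = 0.000437). Adam17 was at 136 to 152 CPM in WT, 104 to 149 in clone E3 and 142 to 152 in clone E5. Its log2 fold changes were -0.11 ± 0.13 and 0.05 ± 0.13. Adam9 (264 ± 19.6 CPM in WT, SD) and Adam15 (49.5 ± 0.614 CPM) also passed in no comparison, with values from -0.30 to 0.14 against WT.

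Adam19 (GRCm39 chr11:45946819-46038170), a sheddase of neuregulins, was the tested gene with no counts in clone E5. It had 155, 128 and 130 counts in WT, 353, 279 and 135 in clone E3 and 0 in each clone E5 library. With each library at 0 set to a floor of 3 counts, Adam19 was at least 46.1-fold lower in clone E5 than in WT (adjusted p = 6.09e-05) and at least 86-fold lower than in clone E3 (adjusted p = 1.65e-05). It passed as higher in clone E3 (0.90 ± 0.29, adjusted p = 0.0495), but replicate 3 lay within the WT range and the call was lost under 10 of 15 alternatives, with adjusted p up to 0.156. Without replicate 3 of clone E3 the value was 1.18 (adjusted p = 0.000239). Of 7 tested protein-coding neighbours within 500 kb, 0 were lower in clone E5, against 11.7% of all genes, with log2 fold changes from -0.77 to 0.36. Lsm11 was higher in clone E5 (0.36, adjusted p = 0.0301), and Cyfip2 was higher in clone E3 (2.47, adjusted p = 0.000116).

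Adam33, an ADAM known from airway smooth muscle and fibroblasts, had 56, 46 and 44 counts in WT, 34, 20 and 45 in clone E3 and 11, 9 and 5 in clone E5. Adam33 fell in clone E5 (-2.53 ± 0.39, adjusted p = 0.00119), and the value in clone E3 was -0.53 ± 0.33 (adjusted p = 0.248), or -0.86 without its replicate 3 (adjusted p = 0.0452). Adam5, a gene best known from the testis, had 24, 23 and 28 counts in WT, 65, 40 and 70 in clone E3 and 28, 32 and 55 in clone E5. It rose in clone E3 (1.24 ± 0.29, adjusted p = 0.00966), and the difference of 0.58 ± 0.30 in clone E5 did not pass (adjusted p = 0.212). Adam11, which lacks protease activity, was at 5 to 26 counts in all libraries and was lower in clone E5 than in clone E3 (-1.22 ± 0.42, adjusted p = 0.0476), a call lost under 8 of 15 alternatives with adjusted p up to 0.161. Adam8, named after its values were seen as the other gene besides Timp1 that rose in clone E5, was at 2.04 to 2.64 CPM in WT and 3.42 to 3.81 in clone E5 (0.63 ± 0.15, adjusted p = 0.0137), and at 2.04 to 2.32 in clone E3. The call for Adam8 was lost under 4 of 16 alternatives, without WT replicate 2 or 3 or without replicate 1 or 2 of clone E5, with adjusted p up to 0.0797.

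ADAMTS2, ADAMTS3 and ADAMTS14 remove the amino propeptide of fibrillar procollagens. Adamts14 (GRCm39 chr10:61032891-61109217) was the most abundant ADAMTS gene, at 158, 161 and 163 CPM in WT, 62.7, 49.2 and 49.5 in clone E3 and 61.7, 71.8 and 80.1 in clone E5. All KO libraries lay well below WT. It fell to 0.334 of the WT level in clone E3 (log2 fold change -1.58 ± 0.13, adjusted p = 2.35e-05) and to 0.442 in clone E5 (-1.18 ± 0.13, adjusted p = 0.000112). The ADAMTS sum per length was 37.4 to 38.6 in the WT libraries, 17.1 to 23.8 in clone E3 and 18.8 to 22 in clone E5. Adamts14 was 72.7% to 73.6% of it in WT. Adamts3 (GRCm39 chr5:89824946-90031193) had 52, 43 and 58 counts in WT, 96, 95 and 25 in clone E3 and 0, 0 and 1 in clone E5. Only clone E5 lay apart from the other lines. Adamts3 fell in clone E5 (adjusted p = 0.000361), and its WT level was 155 times that of clone E5 from the summed counts (95% exact interval of the ratio 27.4 to 6160). Clone E3 did not pass against WT (0.50 ± 0.41, adjusted p = 0.388), although the value without its replicate 3 was 0.89 (adjusted p = 0.00902). The 2 tested neighbours of Adamts3, Cox18 and Ankrd17, lie 331 and 344 kb to one side, with log2 fold changes of 0.02 and 0.29 in clone E5. Adamts2 had at most 6 counts and was not tested.

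ADAMTS1, ADAMTS4, ADAMTS5 and ADAMTS9 cut versican, aggrecan and related proteoglycans. Adamts1 was at 28.1, 28.8 and 30.5 CPM in WT, 23.7, 17.8 and 14.6 in clone E3 and 13.4, 13.5 and 12.8 in clone E5. It fell by 0.64 ± 0.15 in clone E3 (adjusted p = 0.00991) and by 1.14 ± 0.15 in clone E5 (adjusted p = 0.000507). Adamts4 had 96, 70 and 85 counts in WT, 186, 134 and 98 in clone E3 and 35, 31 and 29 in clone E5. Its order between the lines was that of Mmp3. It rose in clone E3 (0.75 ± 0.23, adjusted p = 0.0298, lost under 5 of 16 alternatives with adjusted p up to 0.124) and fell in clone E5 (-1.41 ± 0.25, adjusted p = 0.00302). Adamts9 was at 9.21 to 10.6 CPM in WT, 15.4, 17.1 and 6.6 in clone E3 and 12.1 to 13.6 in clone E5. It passed in no comparison, but without replicate 3 of clone E3 it was higher in both clones than in WT (0.70, adjusted p = 0.000161, and 0.38, adjusted p = 0.00535) and lower in clone E5 than in clone E3 (-0.32, adjusted p = 0.021). Adamts5 had at most 3 counts.

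Adamts7 and Adamts12 cut cartilage oligomeric matrix protein. Adamts7 (GRCm39 chr9:90045122-90090124) had 15, 15 and 22 counts in WT, 58, 39 and 37 in clone E3 and 0, 2 and 0 in clone E5. The 3 lines did not overlap. It rose in clone E3 (1.37 ± 0.35, adjusted p = 0.015), a call lost without WT replicate 1 or 2 or without replicate 1 of clone E3, with adjusted p up to 0.0698. It fell in clone E5 (adjusted p = 0.00113), where the ratio of WT to clone E5 was 26.3 (interval 6.93 to 223). Adamts12 had 19, 7 and 12 counts in WT, 45, 22 and 13 in clone E3 and 0, 2 and 4 in clone E5. Adamts12 fell in clone E5 (-2.61 ± 0.79, adjusted p = 0.0411, lost under 6 of 14 alternatives with adjusted p up to 0.142). In clone E3 the value was 1.08 ± 0.52 (adjusted p = 0.147), and 1.38 without replicate 3 (adjusted p = 0.033). Adamts10, a protease bound to fibrillin, was at 41.4 to 42.8 CPM in WT, 76.7, 57.1 and 59.9 in clone E3 and 46.4 to 52.7 in clone E5. It rose in clone E3 (0.62 ± 0.12, adjusted p = 0.00308), and in clone E5 the difference was 0.25 ± 0.12 (adjusted p = 0.168), or 0.26 without replicate 3 of clone E3 (adjusted p = 0.0443).

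ADAMTS-like proteins resemble ADAMTS proteases but lack the protease domain. Adamtsl3 was at 112, 102 and 92.1 CPM in WT, 56.1, 62.4 and 26.7 in clone E3 and 75.2, 76.6 and 93.5 in clone E5. It fell in clone E3 (-1.08 ± 0.26, adjusted p = 0.00974), and without replicate 3 the value was -0.79 (adjusted p = 0.000126), while the difference in clone E5 was -0.32 ± 0.25 (adjusted p = 0.42), and -0.32 with an adjusted p of 0.018 without that library. Adamtsl5 was at 9.84 to 11.7 CPM in WT, 6.72 to 8.66 in clone E3 and 9.11 to 10.5 in clone E5. Adamtsl5 fell in clone E3 (-0.52 ± 0.13, adjusted p = 0.0124), a call lost without WT replicate 2 (adjusted p = 0.0569). The 3 tested genes not yet named (Adam1a, Adamts6 and Adamtsl4) passed in no comparison, with log2 fold changes from -0.51 to 0.73 against WT. Without replicate 3 of clone E3, Adamts6 (0.73, adjusted p = 0.00122) and Adamtsl4 (0.72, adjusted p = 0.0389) passed as higher in clone E5 than in WT.

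Neighbours were also read for Adamts7 and Reck. Of 4 tested protein-coding genes within 500 kb of Adamts7, 2 were lower in clone E5, against 11.7% of all genes. Tbc1d2b, which overlaps Adamts7 on the other strand by 122 exon bases, had 280, 240 and 231 counts in WT, 244, 242 and 121 in clone E3 and 0 in every clone E5 library, and Ctsh, a lysosomal cysteine protease 87 kb away, had 5 to 13 counts in the other lines and 0 in clone E5. Around Reck, a membrane-anchored inhibitor of MMPs described below, 6 of 18 were lower in clone E5 (11.7% of all genes), while clone E3 had 4 lower (14.7% of all genes) and 4 higher (15.7%). Among the 6, Glipr2 had 674 to 724 counts in WT, 882 to 1015 in clone E3 and 12, 8 and 6 in clone E5, and Hint2 (69 to 96 in WT) and Npr2 (14 to 23) had 0 in each clone E5 library.

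**Figure D5:**
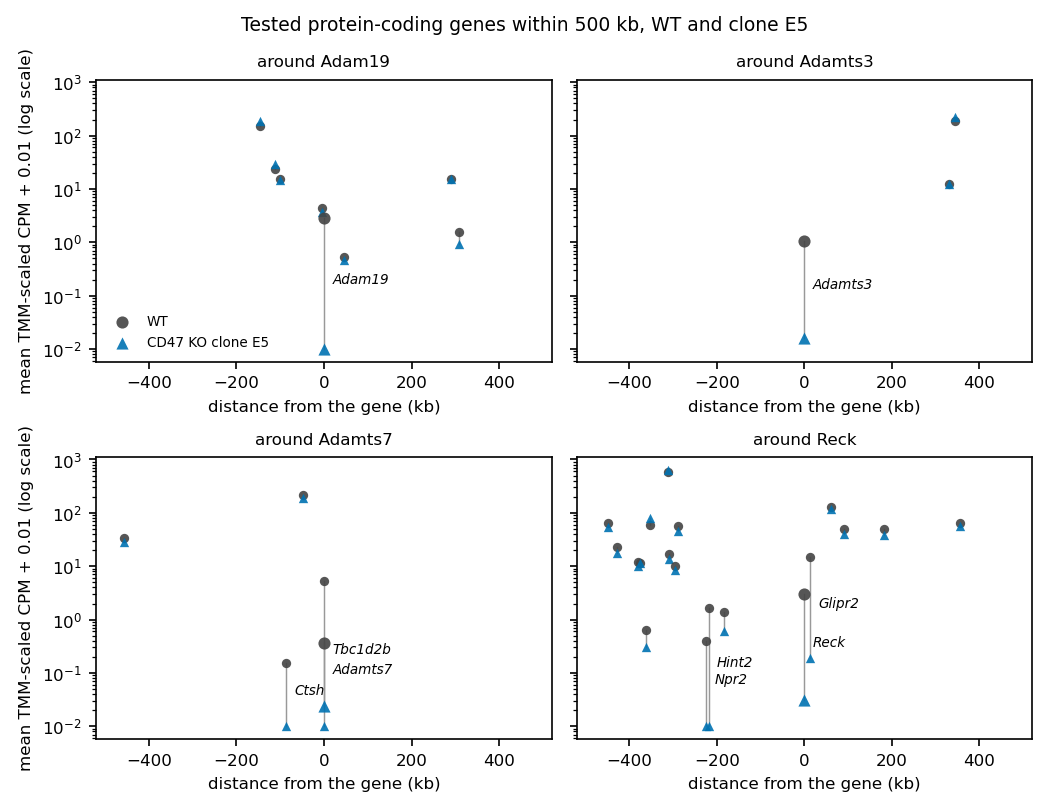
Mean TMM-scaled CPM plus 0.01 (log axis) of tested protein-coding genes against distance in kb, up to 500 kb on each side of Adam19, Adamts3, Adamts7 and Reck, in WT (circles) and clone E5 (triangles), with grey lines joining the values of a gene. Beside Adamts7 and Reck other genes also lie at or near 0 counts in clone E5 (Tbc1d2b, Ctsh, Hint2, Npr2), and beside Adam19 and Adamts3 none does.

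Proteases of this kind are controlled by activating enzymes, receptors and other inhibitors, and 65 such genes and substrates were listed, of which 46 were tested. Against WT, 11 were higher and 11 lower in clone E3, and 9 were higher and 8 lower in clone E5. These are 47.8% and 37% of the 46, beside 30.5% and 20.6% of all genes. Without replicate 3 of clone E3 the counts were 17 higher and 15 lower in clone E3 and 15 higher and 13 lower in clone E5. The shares of all genes also rose. In clone E3 they went from 15.7% higher and 14.7% lower to 21.8% and 21.5%. In clone E5 they went from 8.96% higher and 11.7% lower to 20.8% and 21.2%.

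Reck (GRCm39 chr4:43875530-43944806), which inhibits MMP14, MMP2 and MMP9 at the cell surface, had 154, 153 and 120 counts in WT, 180, 122 and 103 in clone E3 and 1 in each clone E5 library. It fell in clone E5 (adjusted p = 8.11e-07), with a ratio of WT to clone E5 of 144 (interval 49 to 701). Lrp1, the endocytic receptor that clears MMPs and their complexes with TIMPs, was at 172 to 192 CPM in WT, 115 to 299 in clone E3 and 385 to 476 in clone E5 and rose in clone E5 (1.23 ± 0.27, adjusted p = 0.00893). In clone E3 the value was 0.24 ± 0.26 (adjusted p = 0.525), and without replicate 3 of that clone it passed as higher (0.54, adjusted p = 0.00216). Spock2, a proteoglycan linked to membrane-type MMPs, had 26, 21 and 23 counts in WT, 4, 3 and 5 in clone E3 and 10, 5 and 23 in clone E5, and fell in clone E3 (-2.49 ± 0.49, adjusted p = 0.00354).

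Proprotein convertases cut the prodomain of many of these proteases. Pcsk6 (PACE4) was at 5.95, 6.42 and 6.42 CPM in WT, 0.46, 0.38 and 0.154 in clone E3 and 28.7, 34.3 and 32 in clone E5. It fell in clone E3 (-4.21 ± 0.24, adjusted p = 2.79e-06) and rose in clone E5 (2.34 ± 0.18, adjusted p = 9.66e-06), the reverse of the order seen for Mmp3. Plasmin, made from plasminogen by PLAU and PLAT, activates pro-MMPs. Plau (urokinase) was at 183, 159 and 164 CPM in WT, 118, 76.5 and 118 in clone E3 and 56.2, 61 and 64.8 in clone E5, and fell in both clones (-0.69 ± 0.16, adjusted p = 0.00792, and -1.47 ± 0.16, adjusted p = 0.000117). Plat (tissue plasminogen activator) rose in clone E3, from 16.8 to 20.1 CPM in WT to 40.5 to 46.5 (1.26 ± 0.15, adjusted p = 0.000249), and was at 15.2 to 23.6 CPM in clone E5. Serpine2, an inhibitor of these activators, fell in clone E5 from 20 to 31 counts in WT to 1, 5 and 2 (-3.20 ± 0.46, adjusted p = 0.000695).

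Of 7 tested genes listed as astacins and other matrix proteases, Fap and Pcolce were higher in clone E3 and Bmp1 and Ctsk lower in clone E5 than in WT. These are 28.6% in each comparison, beside 30.5% and 20.6% of all genes. Fap, a surface protease of activated fibroblasts, had 1, 4 and 1 counts in WT, 115, 74 and 72 in clone E3 and 0 in each clone E5 library. It rose in clone E3 (adjusted p = 9.42e-05), and in clone E5 it was at least 29.4-fold lower than in clone E3, at the same floor of 3 counts per library. Ctsk (cathepsin K) fell in clone E5, from 12 to 19 counts in WT to 3 to 6 (-1.64 ± 0.42, adjusted p = 0.0187). This call was lost without WT replicate 1 or 2 or without replicate 2 or 3 of clone E5, with adjusted p up to 0.0842. In clone E3 the value was -1.06 (adjusted p = 0.0634), and -1.38 without replicate 3 (adjusted p = 0.0285).

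Of the genes for trafficking and maturation of ADAM10 and ADAM17, 5 of 7 passed in clone E3 (4 higher and 1 lower) and 3 of 7 in clone E5 (all higher), beside 30.5% and 20.6% of all genes. Tspan17, a tetraspanin partner of ADAM10, was at 8.62 to 10.6 CPM in WT, 27.8 to 44.8 in clone E3 and 28.1 to 31.1 in clone E5. It rose in both clones (1.84 ± 0.17, adjusted p = 5.34e-05, and 1.62 ± 0.17, adjusted p = 9.61e-05).

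Of 16 tested substrates shed by ADAM10 or ADAM17, 3 were higher and 6 lower in clone E3, and 4 were higher and 3 lower in clone E5, against 30.5% and 20.6% of all genes in the 2 comparisons. The EGF receptor ligand Areg (amphiregulin) was at 49.7, 56.9 and 49.3 CPM in WT, 11, 10.8 and 14 in clone E3 and 20.4, 19.6 and 20.8 in clone E5, and fell in both (-2.12 ± 0.12, adjusted p = 2.95e-06, and -1.36 ± 0.12, adjusted p = 2.52e-05). Hbegf, another such ligand, fell in clone E3 from 16.1 to 20.8 CPM to 5.68 to 7.4 (-1.48 ± 0.14, adjusted p = 5.84e-05) and was at 14.9 to 16.5 CPM in clone E5. The chemokine gene Cxcl16 fell from 95 to 110 counts in WT to 13 to 20 in clone E3 and 5 to 11 in clone E5 (-2.49 ± 0.25 and -3.54 ± 0.28). The adhesion molecule gene Nectin1 fell in both clones, from 18.3 to 21.6 CPM to 12.1 to 15.3 in clone E3 (-0.56 ± 0.12, adjusted p = 0.00515) and 4.99 to 5.4 in clone E5 (-1.96 ± 0.12, adjusted p = 2.4e-06). L1cam, also an adhesion molecule, fell in clone E3 (-1.35 ± 0.32, adjusted p = 0.00956), and Tnfrsf1b (TNF receptor 2) rose in both (0.88 ± 0.23, adjusted p = 0.014, and 1.76 ± 0.22, adjusted p = 0.00026). The call for Tnfrsf1b in clone E3 was lost without WT replicate 2 (adjusted p = 0.07). Levels of a substrate's transcript do not measure its shedding.

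The other 51 genes were not tested. Of these, 25 had no counts in any library, namely Adam1b, Adam2, Adam6a, Adam6b, Adam7, Adam12, Adam20, Adam24, Adam25, Adam26a, Adam26b, Adam29, Adam30, Adam34, Adam34l, Adam39, Adamts13, Adamts18, Adamts19, Adamts20, Mmp7, Mmp8, Mmp16, Mmp20 and Mmp21. Most of the ADAMs among them are known from the testis, while Adam12 is known from mesenchymal cells. A count of 0 allows a level of up to 0.0555 to 0.066 CPM, depending on the library, by counting error alone. Another 13 reached at most 1 to 3 counts, among them Adam28 (3), Adamts8 (1), Adamts15 (2), Adamts16 (3), Adamtsl1 (2), Adamtsl2 (1), Adam18 (1) and Mmp25 (2). The last 13 reached between 4 and 14 counts, among them Adam22 (12), whose exons share 6137 bases with Sri on the other strand, Adam32 (9), Adam4 (8), Adam3 (7), Adam23 (7), Adam21 (5) and Adamts17 (4). All 51 were below the filter on low counts. Among the tested genes, the exons of Timp2, Mmp19, Adam9 and Adam17 also share 332, 1084, 396 and 341 bases with another protein-coding gene (Cep295nl, Tmem198b, Tm2d2 and Iah1), so part of their counts is uncertain.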

How the data were processed

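RNA-seq of 9 LLC libraries was analysed, 3 each of WT, CD47 KO clone E3 and CD47 KO clone E5. The authors deposited raw counts of reads per gene, neither normalized nor pooled, after trimming (Trimmomatic) and alignment (STAR, GRCm39). The library kit was directional (NEB Ultra II), but which counter, strand option and annotation were used is not given in the sources used here, so overlapping genes and near-identical copies are uncertain.

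The deposited counts were tested with edgeR (version 4.0.16, quasi-likelihood test) in R (version 4.3.3) on TMM-scaled counts, after filterByExpr (minimum count 10, minimum total 15), with the 3 lines fitted together and Benjamini-Hochberg adjustment over 14593 genes. Each standard error was obtained by dividing the size of the log2 fold change by the square root of F. CPM were divided by kb of union exon (GENCODE, GRCm39) to compare genes. Folds against a line with 0 counts were computed at 3 counts per library, and ratios with 1 to 3 counts carry exact 95% binomial intervals, which cover counting error only. The study's methods call the replicates independent biological samples. In counts simulated for clone E3 against WT over 14593 genes, the test recovered 83 of 100 genes changed by 1.5 on the log2 scale and 95 of 100 changed by 2, with 15 false calls. The simulated libraries had the spread fitted to these data, and none was set apart as replicate 3 of clone E3 was. Changes smaller than 1.5 were not simulated, so the recovery of such calls is not known. The members and gene lists were chosen with earlier results of these data known. Named are all DEGs among the members, all TIMPs, members with a mean of at least 10 CPM in a line, and DEGs of either clone against WT in the control and substrate lists. Alternatives were DESeq2 (version 1.42.0), its size factors, upper-quartile scaling, 2 other filters, the 2 groups compared alone, the replicate number as a block and each library left out.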

Additional observations from a re-analysis of the deposited data

Results flagged for a closer look

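The difference between the clones was tested directly for each gene with edgeR's quasi-likelihood test, and genes past an FDR of 0.05 with an absolute log2 difference above 1 are listed here because the change from WT in one clone then differed from that in the other. All values are clone E5 against clone E3.

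Among the proteases and inhibitors, the log2 differences were -4.07 for Mmp3, -3.12 for Mmp10, -1.56 for Mmp13 and -1.28 for Mmp15. Timp3 differed by -2.35, Adam33 by -2.0 and Adam11 by -1.22. Adamts12 differed by -3.68 and Adamts4 by -2.15. Adam19 was at least 86-fold lower, with each library at 0 set to 3 counts, and the ratio of clone E3 to clone E5 from summed counts was 222 for Adamts3 (interval 39.4 to 8800) and 68.8 for Adamts7 (interval 18.7 to 574). These 12 genes were all lower in clone E5, where 3.49% of all genes were DEGs with higher and 7.52% with lower expression. Among the 26 members that reach 10 counts in each library, 3 were DEGs with lower expression, beside 4.21% of all genes that met this limit. The calls for Adam11 and Mmp15 were lost under 8 of 15 and 7 of 15 alternatives, with adjusted p up to 0.161 and 0.134.

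Among the control genes, Pcsk6 was higher in clone E5 by 6.55 and Spock2 by 1.57, while Plat differed by -1.15 and Serpine2 by -2.99. Wfikkn2, from the list of inhibitors outside the TIMPs, was also a DEG with higher expression in clone E5. It passed against WT in neither clone, and its call was not followed under the alternatives. Fap was at least 29.4-fold lower, at the same floor, and the ratio of clone E3 to clone E5 was 139 for Reck (interval 47.1 to 675). Of the substrates, Hbegf was higher in clone E5 by 1.19 and L1cam by 1.03, while Cxcl16 differed by -1.06 and Nectin1 by -1.40. Calls were lost for Spock2 under 9 of 14 alternatives (adjusted p up to 0.206), for Cxcl16 under 8 of 15 (up to 0.113) and for L1cam under 7 of 16 (up to 0.0902).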

How the results depend on the processing

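Of 141 results (a named gene in 1 comparison), 90 passed as reported, 68 of these passed under every alternative that gave a value and 22 were lost under at least 1. None of the 90 reversed direction. Under a limit of at least 10 counts in every library, which leaves fewer genes, members that were DEGs with higher expression in clone E3 numbered 2 (3.67% of all genes). In clone E5 against WT, 9 members were lower and 6 were DEGs, and 4 control and substrate genes were lower (9.85% and 2.54% of all genes). In clone E5 against clone E3, 3 members were higher, 8 were lower and 3 were DEGs (14.6%, 16.4% and 4.21%). Upper-quartile scaling left 1 member higher in clone E5 than in WT and 3 higher than in clone E3 (8.18% and 11.7%). It moved the median of all genes by at most 0.091 in size (-0.091 for clone E5 against E3), where it gave 1705 genes higher and 3054 lower instead of 2147 and 2514. With only the 2 groups compared, 6 members were higher in clone E5 than in WT and 1 than in clone E3, the control and substrate genes numbered 15 higher and 14 lower in clone E5 against WT and 4 and 7 against clone E3. All genes passed at 23.5% higher and 23.3% lower and at 9.79% and 12.3% in these fits.

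Libraries with the same replicate number did not deviate together (correlations of -0.172 to 0.047). With the replicate number as a block, 1 member was higher in clone E5 than in WT and 3 were higher than in clone E3 (6.56% and 12.3% of all genes).

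Leaving out 1 library at a time, 6 (without WT replicate 2) to 14 (without replicate 3 of clone E3) members were higher in clone E3 than in WT, and 7 to 17 control and substrate genes, with the same 2 libraries at the ends, where 9.57% and 21.8% of all genes were higher. In clone E5 against WT, 0 to 6 members were higher, 0 without WT replicate 2 or 3 or without replicate 1 or 2 of clone E5, 1 without WT replicate 1 and 6 without replicate 3 of clone E3, while 7 to 15 control and substrate genes were higher and 6 to 13 lower, the highest without replicate 3 of clone E3. The shares of all genes ran from 4.52% to 20.8% higher and 7.33% to 21.2% lower, lowest without WT replicate 2 and highest without replicate 3 of clone E3. In clone E5 against clone E3, 1 to 6 members were higher and 0 to 1 were DEGs with higher expression (2.87% to 4.14% of all genes), and 5 to 12 control and substrate genes were higher and 7 to 13 lower, beside 9.74% to 22.4% and 11.9% to 21.7% of all genes. The low ends of these came without single WT or E5 libraries. Because the 3 lines share a common estimate of the spread, each library also enters the p-values of comparisons that leave out its line. The part of this in the shifts was not tested separately, nor was any other cause.

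Reversals were limited to 18 values of 10 results that had not passed. Adam10 in clone E3 (-0.01 as reported) was 0.06 with upper-quartile scaling, 0.005 with at least 10 counts in every library and 0 with 2 groups, Reck in clone E3 was 0.008 with upper-quartile scaling, and Adamts9 between the clones was 0.053 with the block. Leaving out 1 library at a time gave -0.14 to 0.203 for Adam10, -0.211 to 0.031 for Adam17, -0.284 to 0.067 for Reck and -0.073 to 0.543 for Lrp1 in clone E3. In clone E5 the ranges were -0.065 to 0.275 for Mmp19 and -0.044 to 0.268 for Plat. Between the clones they were -0.02 to 0.242 for Adam9, -0.318 to 0.231 for Adamts9, -0.323 to 0.017 for Mmp19 and -0.349 to 0.024 for Tspan17. Mmp10, Mmp15, Timp3, Adam11, Adam19, Adam33, Adamts3, Adamts7 and Adamts12 had about 10 reads or fewer in some libraries. So did Reck, Fap, Serpine2, Spock2, Ctsk, Cxcl16 and Pcsk6 among the control and substrate genes. How depth affects the calls of these genes was not tested.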
